A study of Mus musculus with 2 samples.

Results

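The small RNAs described here are sequences of exactly 18 bases that end in CCA, the 3 bases with which mature transfer RNAs (tRNAs) end. Members were all 18-base sequences of the deposited table with this end, except those that lie whole, in sense, within a GENCODE vM21 miRNA or mitochondrial tRNA gene. Of 538100 distinct sequences listed, 1019 had this length and end, 10 were left out by the annotation, and 1009 remained. They are numbered by their reads in both libraries together, fragment 1 having the most, and each was related to the sequences of 22 bases that end in it. The libraries came from bone marrow-derived dendritic cells of C57BL/6 mice, which were grown for 7 days with the cytokines GM-CSF and IL-4 and then exposed to the bacterial component LPS, in a single preparation of each fraction. The nuclear library was made from the pellet that contained the nuclei after swelling in a buffer with the detergent NP40, and the cytoplasmic library from the remaining fraction. All cells had received LPS at a dose and for a time not given in the sources used here, and unstimulated cells were not analysed here.

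A tRNA folds into an acceptor stem, a D arm, an anticodon arm and a T arm, and the CCA end is added by an enzyme after transcription and carries the amino acid. Cleavage in the T loop releases 3′ fragments of the tRNA, of which a shorter form of 18 bases begins at tRNA position 59 and a longer form of 22 bases at position 55. Position 58 lies between these starts and is a methylated adenosine in many tRNAs, a base that reverse transcriptase often misreads. Retroviruses and related retroelements start reverse transcription from a tRNA whose last 18 bases pair with their primer binding site.

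The sequences on which the results turn are printed first, with the CCA end in capitals. Fragments 1 and 2 had the most reads, fragments 5, 10 and 41 and fragments 6 and 13 form sets that differ at the first base only, fragments 9, 12 and 25 were among the most cytoplasmic, and fragments 15, 18 and 20 were among the least cytoplasmic. Fragments 4, 8 and 11 matched a tRNA locus, fragment 14 matched transcripts on both strands, fragment 24 was the member called higher in the nuclear library, and fragments 33 and 63 were read mainly in their 22-base form.
fragment 1: aaccgggcggaaacaCCA
fragment 2: tccccggcatctccaCCA
fragment 3: tccccgtacgggccaCCA
fragment 4: atcctgccgactacgCCA
fragment 5: ttccggctcgaaggaCCA
fragment 6: atcacgtcggggtcaCCA
fragment 8: atcccatcctcgtcgCCA
fragment 9: atccgggtgccccctCCA
fragment 10: atccggctcgaaggaCCA
fragment 11: atcccaccgctgccaCCA
fragment 12: caatgaacactctgaCCA
fragment 13: gtcacgtcggggtcaCCA
fragment 14: gtccctgttcgggcgCCA
fragment 15: ttcccgggcggcgcaCCA
fragment 18: atcccggacgagcccCCA
fragment 20: tccccggcacctccaCCA
fragment 24: aggatttacctgaggCCA
fragment 25: tcccgggtttcggcaCCA
fragment 33: ttcccggccaacgcaCCA
fragment 41: ctccggctcgaaggaCCA
fragment 63: ttcccggccaatgcaCCA

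The deposited values, in RPM (reads after scaling both libraries to the same total), were turned back into whole reads, which gave 2000019 reads in the nuclear and 2041383 in the cytoplasmic library. With 1 library a group there is no replicate check and no test, and every interval below is an exact 95% interval that covers only the error of counting, as reads amplified by PCR and carrying no molecular identifier are not separate molecules. Sequences of small nucleolar RNAs (snoRNAs), which reside in the nucleus, were 31.1-fold higher in the nuclear library. Those of mitochondrial tRNA genes were 2.58-fold higher in the cytoplasmic library. The other 2 classes taken as fraction markers separated little. Sequences of scaRNAs, taken as nuclear, had 3179 nuclear and 3415 cytoplasmic reads, and those of mitochondrial ribosomal RNA, taken as cytoplasmic, had 3322 and 3898. The myeloid miRNAs Mir142 and Mir155 were read 3328 and 10821 times in the nuclear and 5663 and 8009 times in the cytoplasmic library, and the erythroid Mir451a 0 and 2 times. The liver miRNA Mir122 had 276 nuclear against 21 cytoplasmic reads and the muscle miRNA Mir1a-1 had 80 against 6. The miRNAs taken as stromal markers had 607 against 529 reads, and those taken as neural markers 920 against 1919. The part of RNA from other cells in the results below was not tested.

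As a whole the members were a cytoplasmic set. Summed, they had 2079 reads (1039 RPM) in the nuclear and 11045 reads (5411 RPM) in the cytoplasmic library, and their cytoplasmic level was 5.21 times the nuclear one (interval 4.97 to 5.46). A few members held most of these reads. Fragments 1 and 2 alone gave 51.6% of the cytoplasmic and 27.2% of the nuclear member reads, whereas 652 members were read 1 time in all. Of the 1009 members, 84 (8.33%) occurred in both libraries, 482 in the nuclear library alone and 443 in the cytoplasmic library alone. Of all 538100 sequences, 31195 occurred in both libraries. Counting these, the nuclear library held 400087 sequences and the cytoplasmic library 169208, so that sequences in general were more often nuclear than members were. Among the 1009, 189 members were 1 base away from a member with at least 20 times their reads, and sequencing errors of an abundant fragment cannot be told apart from rare tRNA variants there.

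The length and end by themselves do not make a sequence a tRNA fragment, so the members were checked against a feature that the selection did not use. A tRNA read from position 55 begins with T, C, any base and A, and has C at base 7, since these T-loop positions are conserved. This start (TCNA with C at base 7, read on the sequenced strand) was found in a 22-base sequence ending in the member for 105 of the 1009 members, 10.4%, and these are called T-arm members below. This mark depends on a 22-base read with adenine at base 4 having been found, and 4329 cytoplasmic against 287 nuclear reads gave it, so the mark was set mainly by the cytoplasmic library and how T-arm members divide between the libraries is a description. Among other 22-base sequences the same start made up 0.0240% of cytoplasmic and 0.0402% of nuclear reads, against 27.4% and 17.4% of the 22-base reads that end in a member. When any base was allowed at base 4 the shares were 98.7% and 73.3% against 0.263% and 0.301%.

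A feature that needs no 22-base read is the C at base 3 of the 18-base form, a conserved T-arm base. It was found in 94.4% of cytoplasmic (93.98 to 94.8) and 66.6% of nuclear member reads (64.5 to 68.6), against 35.5% and 22.2% of the reads of other 18-base sequences. Counted by sequence, 476 of the 1009 members (47.2%) had it, against 19.5% of the other 18-base sequences. The T-arm members were read 1035 times in the nuclear and 10027 times in the cytoplasmic library (49.8% and 90.8% of the member reads), and the other 904 members 1044 and 1018 times. Since the mark came mainly from cytoplasmic reads, nothing is read from the contrast between these sets. Among all members, 11 match snoRNAs or the related scaRNAs, with 123 nuclear and 4 cytoplasmic reads, and 11 match the end of a mitochondrial tRNA once CCA is added, with 4 nuclear and 210 cytoplasmic reads. Of the mitochondrial ends only fragment 594, of mt-Tl1 with 1 read, is a T-arm member.

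The length of the CCA-ending reads was not even. Sequences with this end made up 11.7% of the cytoplasmic reads of 18 bases and 2.70% of those of 22 bases, but 1.75%, 0.674% and 0.570% of those of 19, 20 and 21 bases and 0.0910% of those of 23 bases. A share of 2.73% at 27 bases rested on 125 of 4578 reads. In the nuclear library they were 1.14% of the 18-base reads and 0.929% of the 22-base reads, and the highest share among lengths up to 22 was 2.43% at 21 bases. The ends ACC and CAC, made of the same letters, were found on 1.60% and 0.379% of the cytoplasmic 18-base reads. The table lists no sequence under 18 bases, so shorter tRNA ends were not analysed here.

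**Figure D1:**
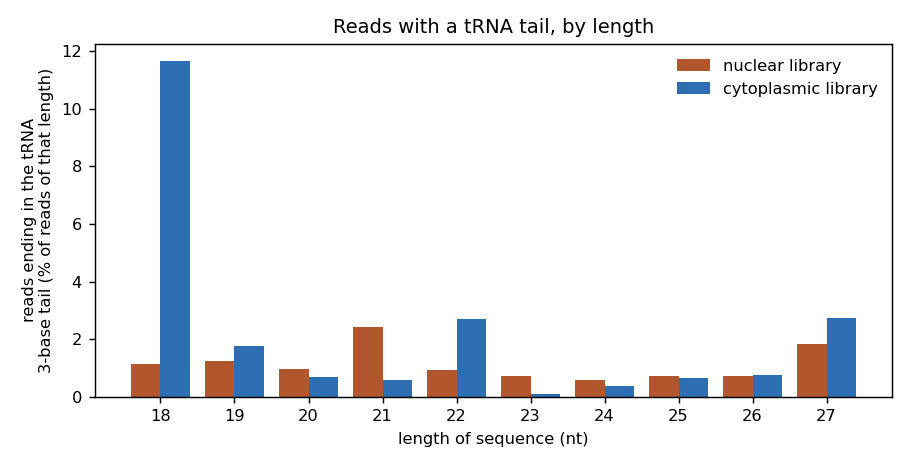
Share of reads that end in CCA (y axis, percent of the reads of that length) by sequence length in nt (x axis), for the nuclear and the cytoplasmic library, 1 library each. The cytoplasmic share stands at 11.7% at 18 nt and 2.70% at 22 nt, between 0.570% and 1.75% at the 3 lengths between them, and at 2.73% at 27 nt.

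All sequences that end in a member were then counted by length, whether or not a 22-base form was among them. In the cytoplasmic library 35.8% of their 30815 reads were 18 bases and 51.3% were 22 bases long, and the lengths of 19, 20 and 21 bases took 5.03%, 2.65% and 3.28%. In the nuclear library 17.1% of 12191 reads were 18 bases, 13.5% were 22 bases and 42.6% were 21 bases long. Over T-arm members, which by definition have reads at both lengths, 18 and 22 bases took 36.4% and 56.6% of cytoplasmic and 34.4% and 40.2% of nuclear reads.

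Of the 1009 members, 26 had at least 50 reads in all and were compared one by one, and 24 of these are T-arm members. A member was called where the levels differed at least 2-fold, with a pseudocount of 0.5 reads, and the interval excluded 1. By this rule 24 members were lower in the nuclear library (92.3% of the 26 compared), 1 was higher (3.85%) and 1 was neither. Of the 24 T-arm members compared, 95.8% were called lower and 0 higher. Nothing is read from that share, since the T-arm mark came mainly from cytoplasmic reads. Over the 361 other 18-base sequences with as many reads, 24.4% were called lower and 49% higher in the nuclear library, and over all 3867 sequences of any length 27% lower and 40.1% higher. The median log2 nuclear over cytoplasmic ratio was −3.34 over the 26 members, 0.91 over the other 18-base sequences and 0.03 over all sequences.

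**Figure D2:**
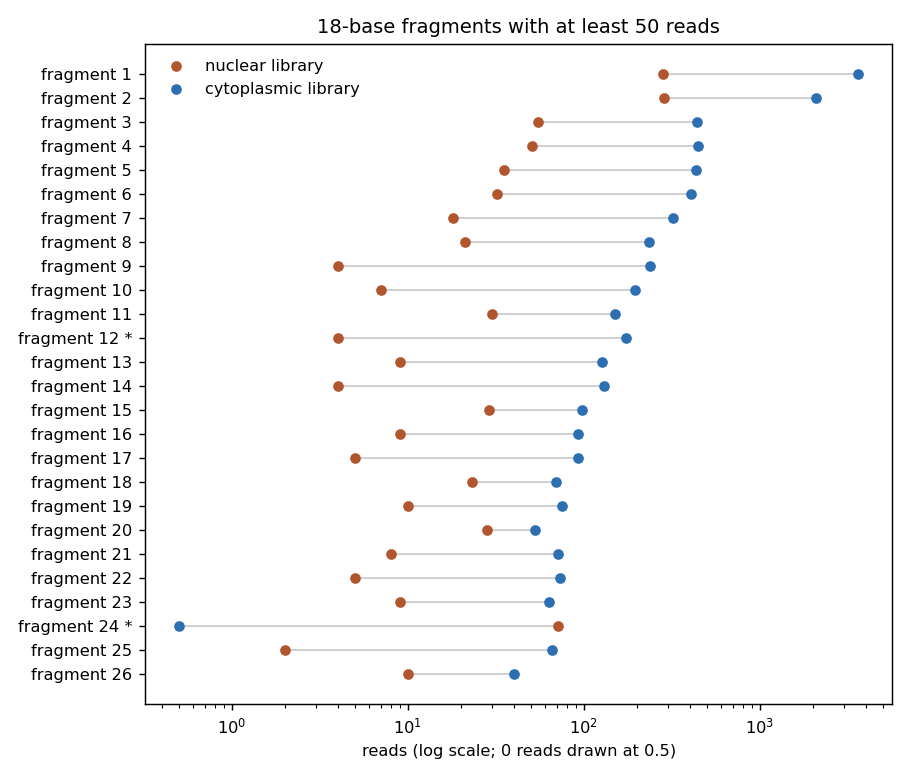
Reads in the nuclear and the cytoplasmic library (x axis, log scale, 0 drawn at 0.5) of the 26 members with at least 50 reads (y axis, by rank), with a line joining the 2 libraries and an asterisk on the 2 members without a T-arm start. The cytoplasmic point lies to the right for every member except fragment 24, which had 71 nuclear and 0 cytoplasmic reads.

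Fragment 1 was read 280 times in the nuclear and 3627 times in the cytoplasmic library, 12.7-fold higher in the latter (11.2 to 14.4). Its sequence is the CCA-tailed end of n-TVcac9, a valine tRNA with anticodon CAC, which lies on chromosome 13 at 23446142 to 23446214 on the minus strand (GRCm38). Other tRNA genes with the same last bases cannot be told apart from it. Fragment 2 had 286 nuclear and 2070 cytoplasmic reads, a 7.09-fold difference (6.26 to 8.05). In the nuclear library these 2 fragments were thus about equal, whereas in the cytoplasmic library fragment 1 had more reads.

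Serine tRNA ends were among the abundant members with a known locus. Fragment 4, read 51 and 443 times in the nuclear and cytoplasmic library, is the tailed end of the serine tRNAs n-TSaga9 (chromosome 4, 10874064 to 10874145, plus strand), n-TStga1 (chromosome 13, 23518146 to 23518227, plus strand) and n-TStga2 (chromosome 13, 21924935 to 21925016, minus strand). Fragment 8, read 21 and 234 times, is the end of a serine tRNA with another anticodon, n-TSgct5 (chromosome 13, 22050686 to 22050767, minus strand). Their cytoplasmic levels were 8.51-fold (6.36 to 11.6) and 10.9-fold (6.98 to 17.97) higher, with overlapping intervals. Fragment 11, of the leucine tRNA n-TLaag4 (chromosome 7, 120917517 to 120917598, plus strand), had 30 and 150 reads, a 4.90-fold difference (3.29 to 7.51).

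Among the T-arm members with at least 50 reads, the least cytoplasmic were fragments 15, 18 and 20. Fragment 15, the end of the glycine tRNA n-TGccc7 (chromosome 17, 25875088 to 25875158, plus strand, within an exon of Mettl26), had 29 nuclear and 98 cytoplasmic reads, a 3.31-fold difference (2.17 to 5.20). Fragment 18 had 23 and 69 reads, a 2.94-fold difference (1.81 to 4.94). Fragment 20, the end of the alanine tRNA n-TAagc16 (chromosome 13, 21222586 to 21222657, plus strand), had 28 and 53 reads, and its 1.85-fold difference (1.15 to 3.05) did not reach 2-fold. Fragment 20 is 1 base away from fragment 2, which had over 20 times its reads.

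At the other extreme stood fragments 9, 12, 14 and 25. Fragment 9 was read 4 times in the nuclear and 237 times in the cytoplasmic library, 58.05-fold higher in the latter (22.4 to 215). Fragment 12, with 4 and 173 reads (42.4-fold, 16.3 to 157), is the end of the mitochondrial valine tRNA mt-Tv with CCA added, a tRNA that is made and used in mitochondria. Fragment 25 had 2 and 66 reads, a 32.3-fold difference (8.60 to 273). Fragment 14 had 4 and 130 reads, a 31.8-fold difference (12.1 to 119), and the intervals of these 4 members overlapped one another.

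Fragment 24 was the exception. It was read 71 times in the nuclear and 0 times in the cytoplasmic library, 24.2-fold higher in the nuclear library against a floor of 3 reads. The interval of its nuclear over cytoplasmic ratio began at 19.1. It is no tRNA end, since it lies within Snord93, a box C/D snoRNA of the kind that guides ribose methylation of ribosomal RNA, and within Mir3096, which GENCODE also types as a snoRNA. It has no 22-base sequence that ends in it. Fragment 39 of Snord35a, with 20 nuclear and 2 cytoplasmic reads, and fragment 42 of Scarna3b, with 20 and 0, had the same direction below the 50-read minimum. So did fragment 43, with 20 and 0, which matched no annotated transcript. Among all sequences of 18 to 22 bases that match a snoRNA or scaRNA, 97.4% of 196 were called higher and 2.04% lower in the nuclear library.

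The remaining abundant members were fragments 3, 5, 6, 7, 10 and 13, all T-arm members without a matched locus. Fragment 3 had 55 nuclear and 440 cytoplasmic reads, fragment 5 had 35 and 431, and fragment 6 had 32 and 407. Fragment 7 had 18 and 319 reads, fragment 10 had 7 and 196, and fragment 13 had 9 and 127. Their cytoplasmic levels were between 7.84-fold (fragment 3) and 27.4-fold (fragment 10) higher. For the 81 T-arm members under 50 reads, the reads summed to 65 and 423. Not all of these had more cytoplasmic reads: fragment 33 had 13 nuclear and 17 cytoplasmic reads, fragment 71 had 5 and 3, fragment 83 had 4 and 2, and fragment 105 had 4 and 1.

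Few of the 408 nuclear tRNA loci listed by RefSeq (GRCm38.p6) could be compared by sequence. The last 19 bases were found, with the T-arm start, for 15 loci, inside an annotated exon or a promoter window. Locus ends without that start, which has adenine at base 4, were left out before matching. Of the 15 loci, 12 had a member as their tailed end. These loci shared 10 members. Beside those above, fragment 37 of the threonine tRNA n-TTagt9 had 1 nuclear and 25 cytoplasmic reads, and fragment 45 of the arginine tRNA n-TRtct4 had 2 and 16. Fragment 61 of the asparagine tRNA n-TNgtt7 had 0 and 10 reads, and fragment 318 of the arginine tRNA n-TRtcg5 had 0 and 2. Together the 10 members had 442 and 4658 reads, a 10.3-fold difference (9.36 to 11.4).

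The 22-base forms were also cytoplasmic. The 397 sequences of 22 bases that end in a member had 1648 nuclear and 15795 cytoplasmic reads, a 9.39-fold difference (8.92 to 9.88). Of the 34 with at least 50 reads, 94.1% were called lower and 5.88% higher in nuclear RNA, and the log2 ratio had a median of −4.32. For fragment 1 the 22-base reads were 107 nuclear and 3148 cytoplasmic, a 28.8-fold difference (23.8 to 35.3) against 12.7-fold for its 18-base form. For fragment 15 they were 405 and 2643, a 6.39-fold difference (5.76 to 7.12). Fragment 15 was thus among the least cytoplasmic in its shorter form and less cytoplasmic than fragment 1 in its longer form.

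The number of short reads for each long read was compared between the fractions. All members together had 1.26 reads of 18 bases for each read of 22 bases in the nuclear library and 0.699 in the cytoplasmic library, a ratio of these of 1.80 (1.68 to 1.93). With sequences of 21 to 23 bases in place of 22 the direction over all members turned, to 0.297 in the nuclear and 0.654 in the cytoplasmic library. Of the 5199 nuclear reads of 21 bases that end in a member, 210 ended in a T-arm member, against 533 of 1011 cytoplasmic ones. For T-arm members the nuclear reads of 18, 21, 22 and 23 bases were 1035, 210, 1210 and 30. The cytoplasmic ones were 10027, 533, 15583 and 16, so with 21 to 23 bases the direction did not turn over T-arm members. Over T-arm members alone, with 22 bases, the values were 0.855 and 0.643, a ratio of 1.33 (1.22 to 1.45). In 16 members with at least 50 reads of each form, the ratio of nuclear to cytoplasmic 18:22 values had an interval above 1 for 5, below 1 for 0 and holding 1 for 11. The 5 were fragment 1 (2.62 nuclear against 1.15 cytoplasmic), fragment 3 (7.86 against 3.33), fragment 4 (2.32 against 1.04), fragment 5 (0.315 against 0.107) and fragment 15 (0.0716 against 0.0371). Across 19 members with enough reads of each form, the order of the 18:22 values was similar in both libraries (Spearman rho 0.88, a description over members of the same 2 libraries).

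Which form had more reads differed between tRNA ends. The 22-base form holds position 58 and the 18-base form does not. Whether this position affects how often the 22-base form is read was not tested. Fragment 2 had 6.88 cytoplasmic reads of 18 bases for each of 22 bases (2070 against 301), whereas fragment 5 had 0.107 (431 against 4011). Fragment 9 was read almost only in the short form, with 241 reads of 18 bases and 4 of 22 in both libraries together, and fragment 12 had 177 and 1. Fragment 11 had 180 reads of 18 bases and 16 of 22, and fragment 22 had 78 and 6. At the other end fragment 63 had 10 reads of 18 bases and 1094 of 22 bases, 109-fold more of the long form (59.3 to 229), and fragment 33 had 30 and 1244, 41.5-fold more (28.9 to 61.7). Fragment 140 had 4 and 195 reads. Fragment 283 had 2 and 75, all nuclear, but lies in the snoRNAs Snord14c and Snord14d within Hspa8 and has no T-arm start.

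**Figure D3:**
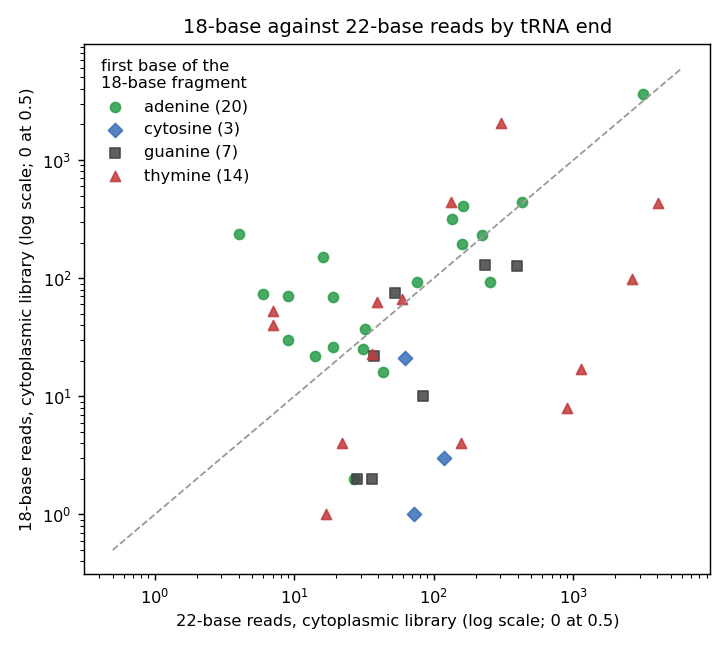
Cytoplasmic reads of 18 bases (y axis) against those of 22 bases (x axis) for the T-arm members with at least 20 reads of both forms together, both on log scales with 0 drawn at 0.5; marks give the first base of the 18-base form and the dashed line marks equal reads. Of the 20 members that begin with adenine 16 had more 18-base than 22-base reads in both libraries together, against 6 of 14 with thymine, 1 of 7 with guanine and 0 of 3 with cytosine.

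The first base of the short form, position 59, went along with these values. Among T-arm members with at least 20 reads of both forms together, 16 of 20 that begin with adenine had more 18-base than 22-base reads, and their summed cytoplasmic 18:22 value was 1.28. The 14 that begin with thymine included 6 such members and a value of 0.350, the 7 with guanine 1 and 0.427, and the 3 with cytosine 0 and 0.0988. These groups were compared after the values had been seen. Fragment 2, which begins with thymine, and fragment 19, which begins with guanine, had more of the short form, so the first base and the prevailing form did not go together throughout.

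Members that differ at the first base only allow a closer comparison. The sequences are repeated with that base in capitals, and positions are counted from 1 at the 5′ end of the 18-base form.
fragment 5: Ttccggctcgaaggacca
fragment 10: Atccggctcgaaggacca
fragment 41: Ctccggctcgaaggacca
fragment 6: Atcacgtcggggtcacca
fragment 13: Gtcacgtcggggtcacca
Fragments 6 and 13 differ by A1G. Fragment 6 had 2.48 reads of 18 bases for each of 22 bases in both libraries together (2.08 to 2.97), and fragment 13 had 0.333 (0.272 to 0.406), so that the first value was 7.43 times the second (5.68 to 9.75). Fragments 5 and 10 differ by T1A, with 0.113 (0.103 to 0.124) and 1.23 (0.997 to 1.52). Fragments 10 and 41 differ by A1C, with 1.23 and 0.333 (0.193 to 0.554). In each of these pairs the form with adenine had the higher share of 18-base reads. Fragment 41 has 21 reads of 18 bases and is 1 base away from fragment 5, whose reading errors cannot be told apart from it.

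The base read at position 58, the fourth of the 22-base form, was often another than adenine. The 22-base forms of 5 members are shown with this base in capitals, as the sequence that carries adenine there.
fragment 1: tcgAaaccgggcggaaacacca
fragment 2: tcgAtccccggcatctccacca
fragment 5: tcgAttccggctcgaaggacca
fragment 13: tcaAgtcacgtcggggtcacca
fragment 71: tcgActcccggtgtgggaacca
In the 33 members with at least 20 cytoplasmic reads, 73.0% of 15083 reads (72.2 to 73.7) had another base than adenine at this position. In the nuclear library the share was 80.6% of 1034 reads (78.0 to 82.9) in 9 members, so the 2 values cover unlike sets. The median over members was 60.8% in the cytoplasmic and 82.7% in the nuclear library. Without fragment 5, which had the most 22-base reads, the pooled shares were 65.2% and 78.7%. The bases before it were counted in the same way among reads with adenine at base 4. Another base than the member's own was read in 0 of 4078 cytoplasmic reads at base 1 (0 to 0.0904%). The share was 0.269% at base 2 and 1.69% at base 3. For the nuclear library these were 0 of 201 at each base (0 to 1.82%). At base 3 members were uneven, with another base in 29.7% of 91 cytoplasmic reads for fragment 6 and 14.2% of 254 for fragment 2. For fragment 2 this was above its 8.02% at base 4. Fragment 6, with too few nuclear reads to be among the 9 members, had another base at base 3 in 5 of 13 nuclear reads.

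Members differed widely at this position. Fragment 5 lacked adenine in 94.48% of 4003 cytoplasmic reads (93.7 to 95.2), fragment 15 in 93.3% of 2639 (92.3 to 94.3) and fragment 1 in 44.3% of 3138 (42.6 to 46.1). Fragment 2 lacked it in 8.02% of 237 (4.90 to 12.2), and fragment 71 in 0.840% of 119 (0.0213 to 4.59). The nuclear values for fragments 5, 15 and 1 were 96.4%, 91.6% and 39.3%, of 110, 405 and 107 reads. The order of these 3 members was the same in both libraries. The loci of fragments 1 and 15 named above encode adenine at this position. Loci were kept only with the T-arm start, adenine included, so nothing is read from this. Only 15 of the 408 nuclear tRNA loci could be compared by sequence, so other genes with the same ends were not excluded. For members with or without a matched locus, a tRNA gene with another base there thus cannot be told apart from a misread base.

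The base that took the place of adenine was counted by the base that follows it, which is the first base of the 18-base form. Before thymine, 98.5% of the cytoplasmic reads without adenine had thymine, and thymine was more frequent than guanine in 11 of 11 members. Before guanine, 65.6% of the pooled reads had guanine and 33.7% thymine, but guanine was the more frequent in 3 of 7 members and thymine in the other 4, and fragments 13 and 14 gave most of the reads. Before adenine, 73.7% had thymine and 24.3% guanine, with thymine the more frequent in 11 of 12 members. Fragments 5 and 13 are examples, with thymine in 93.6% and guanine in 0.824% of all reads for fragment 5, and 20.4% and 66.2% for fragment 13. Fragment 41, with cytosine next, had guanine in 49.2% and thymine in 27.9% of 61 reads, though it shares every other base with fragment 5. Across 33 members the share without adenine and the 18:22 value had a Spearman rho of −0.29, a weak relation given as a description.

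**Figure D4:**
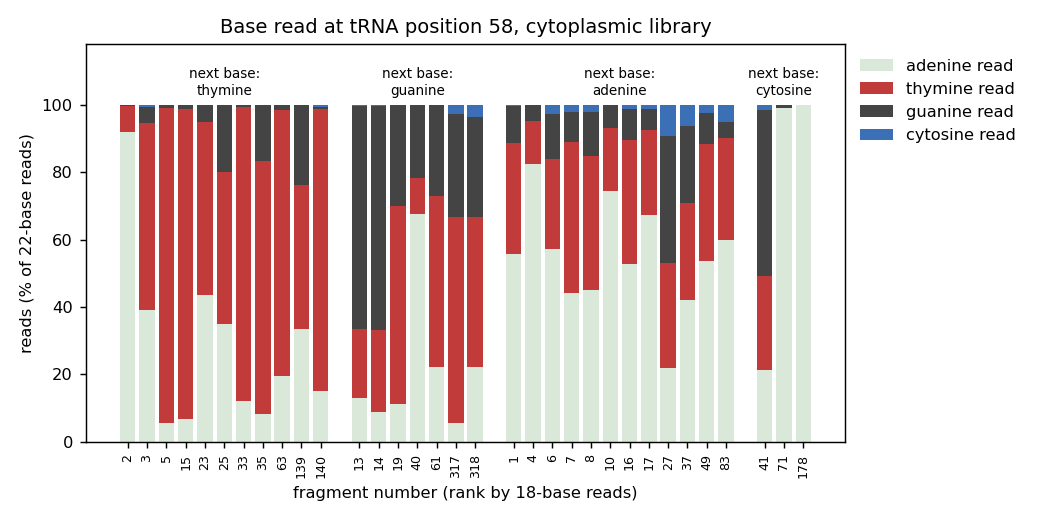
Base read at tRNA position 58 in the cytoplasmic library, as percent of the 22-base reads (y axis), for the 33 members with at least 20 such reads (x axis, by rank), grouped by the base that follows. Thymine takes most of the reads without adenine where thymine follows, and guanine exceeds thymine in 3 of the 7 members where guanine follows, while fragment 71 is read almost wholly as adenine.

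Bases added after the CCA end were a further difference between the libraries. Sequences that begin with a T-arm member and continue past the CCA were counted, a measure chosen after the data had been seen. For fragment 1 the forms with added adenines, in capitals, were these.
1 added adenine: aaccgggcggaaacaccaA
2 added adenines: aaccgggcggaaacaccaAA
The first had 137 nuclear and 260 cytoplasmic reads and the second 71 and 137. All forms of fragment 1 that carried adenines only made up 34.6% of 635 nuclear reads (30.9 to 38.5) and 10.1% of 4340 cytoplasmic reads (9.26 to 11.1), relative to all reads that begin with it. The adenine-tailed level was 1.96-fold higher in the cytoplasmic library, against 12.7-fold for the untailed form.

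Over all T-arm members the share with added adenines was 24.1% in the nuclear (22.2 to 26.1) and 7.36% in the cytoplasmic library (6.89 to 7.85). Without fragment 1 it was 18.8% and 5.68%. Added thymines alone made up 11.0% and 3.11%. On the 22-base forms of the same tRNA ends the adenine share was 0.576% and 0.167%. On the 20 most abundant miRNA sequences, counting only adenines not encoded in the hairpin, it was 14.7% and 12.6%. That share was of untailed and adenine-tailed reads alone, whereas the T-arm share was of all reads that begin with the member. The levels were thus not measured alike, but the ratio between the libraries was smaller for those miRNAs.

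Tailing differed between tRNA ends. Fragment 5 carried added adenines in 46.6% of nuclear (39.8 to 53.4) and 27.7% of cytoplasmic reads (24.7 to 30.9), and fragment 10, which has the same last 17 bases, in 36.4% (22.4 to 52.2) and 18.996% (14.6 to 24.1). Fragment 2 had 11.4% and 1.99%, fragment 11 had 27.1% and 3.13%, and fragment 20 had 29.0% and 3.28%. In contrast fragment 3 had no such read among 58 nuclear (0 to 6.16%) and 450 cytoplasmic reads (0 to 0.816%). Fragments 8, 13, 14, 19 and 23 had none either. Of the 24 T-arm members with at least 50 reads, 12 had a higher nuclear share, with an interval of the odds ratio above 1 for 9, and 6 had a higher cytoplasmic share, with an interval below 1 for 0. The other 6 had no adenine tail in either library, and 11 of the 24 had none in the nuclear library.

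**Figure D5:**
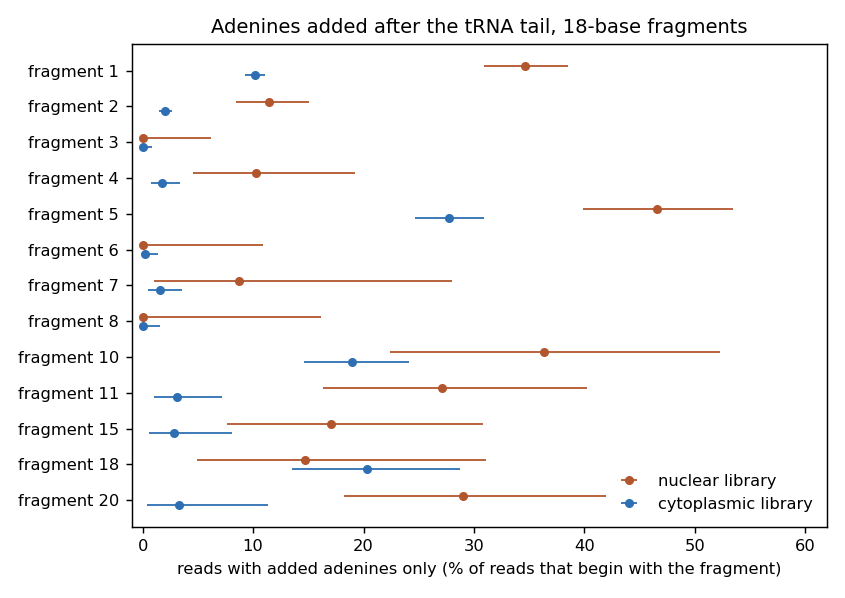
Reads with only adenines added after CCA, as percent of all reads that begin with the fragment (x axis), with exact 95% intervals, in the nuclear and the cytoplasmic library for the T-arm members with at least 50 reads, and at least 20 nuclear reads that begin with them (y axis). The nuclear point of fragments 1 and 5 stands at 34.6% and 46.6% against 10.1% and 27.7% in the cytoplasmic library, and fragments 3 and 8 stand at 0 in both.

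The last base before CCA, the discriminator base, was adenine in 20 of the 33 T-arm members with at least 20 reads. Guanine was found in 7, thymine in 5 and cytosine in 1, which is fragment 18. The median log2 nuclear over cytoplasmic ratio was −3.41 for adenine, −3.09 for guanine and −4.06 for thymine. All 3 medians were negative, but nothing is read from this direction, since the T-arm mark came mainly from cytoplasmic reads.

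Matches to annotated transcripts were looked for on both strands, since the antisense strand would carry any primer binding site. Of the 105 T-arm members, 12 (11.4%, 6.05 to 19.1) matched a transcript in antisense over all 18 bases including CCA, against 7.54% of the other 18-base sequences. In sense 8 (7.62%, 3.35 to 14.5) matched, against 32.2%. Fragment 2 matched Fgg, a fibrinogen chain gene, in antisense. Fragment 3 matched 9 genes in antisense, among them Xdh and Aen, and 5 in sense, among them Fstl1 and Ppp2r5a. Fragment 25 matched 12 in antisense and 9 in sense, and it shares Xdh, Aen and Fstl1 with fragment 3. Fragment 14 matched Adarb2 in sense and Olfr1388 and 2 predicted genes in antisense. The table does not tell whether such reads come from the transcript or from the tRNA.

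Sequences that could be the other strand of the acceptor stem were looked for next. The 2551 sequences of at least 30 bases were searched for starts that pair with bases 8 to 14 of each of the 28 members chosen for description. Such a sequence was found for fragment 2 alone, with 1 nuclear read. Shorter 5′ fragments, and starts that pair imperfectly, were not searched.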

How the data were processed

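Small RNAs were measured in 2 libraries, 1 nuclear and 1 cytoplasmic. The authors deposited a table of sequences with values in RPM. Per the submitters' processing notes CASAVA and mm10 were used; trimming, length limits and filters were not given in the sources used here. Columns were assigned by the last letter of their names. Values were whole multiples of 0.500 RPM (nuclear) and 0.490 RPM (cytoplasmic), within 0.1 read for 100% of values, and were turned back into reads. No adjusted p was computed, since a count model has no residual degrees of freedom with 1 library a group.

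Members were matched over their full length to GENCODE vM21 transcripts and, with CCA added, to the last 19 bases of RefSeq tRNA loci found in exons or promoter windows. Only locus ends with the T-arm start were kept. Ratios and shares carry exact (Clopper-Pearson) 95% intervals computed with SciPy 1.17.1; the log2 ratio used 0.5 reads as pseudocount and 50 reads as minimum. A library without a read was set to a floor of 3 reads for a fold. The scripts were tested on simulated data. TMM factors came from edgeR 4.0.16.

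The members described were the 15 with the most reads, the 4 highest and 4 lowest nuclear over cytoplasmic ratios, the 4 highest and 4 lowest ratios of 18-base to 22-base reads, and those with a tRNA locus; others named were chosen after their values were seen. Members and lists were chosen with earlier results of these data known. Alternatives changed the scaling, the minimum of reads, the pseudocount, the call rule, the members included and the lengths related to them.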

Additional observations from a re-analysis of the deposited data

How the results depend on the processing

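The direction of the members' summed level held under each alternative run. The summed nuclear over cytoplasmic level, 0.192, became 0.204 with median-of-ratios scaling, 0.357 with scaling to miRNA reads, 0.105 over T-arm members, 0.167 without members that match a transcript and 0.248 without fragment 1. The value over T-arm members is no check on the direction, since their mark came mainly from cytoplasmic reads. The 24 members called lower became 55 with no minimum of reads, and the 1 called higher became 4 at 20 reads, 14 with no minimum and 0 at 100 reads, over T-arm members or without transcript matches. The median log2 ratio, −3.34, was −2.44 with scaling to miRNA reads, which shifts every log2 ratio by 0.89, and 0.0295 with no minimum, where members of 1 read prevail.

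The nuclear 18:22 ratio, 1.26, turned to 0.855 over T-arm members and 0.297 with sequences of 21 to 23 bases, and was 1.82 without transcript matches, 1.17 without fragment 1 and 1.003 without fragments 1 and 2. The cytoplasmic ratio, 0.699, was 0.643, 0.654, 0.776, 0.587 and 0.433 in the same order, and 0.677 without members 1 base from a larger one. With 21 to 23 bases the nuclear value over all members is thus the lower one. The nuclear share of the T-arm start, 17.4%, was 28.7% with each sequence counted once, 23.97% at 50 reads and 73.3% with any base 4 (cytoplasmic: 27.4% and 98.7%), and the nuclear share without adenine at base 4, 80.6%, was 83.9% at 50 reads. Leaving out fragments 1 and 2, the mitochondrial ends, and allowing any base 4 were chosen after seeing the data. No cause of these shifts was tested. No paired analysis was possible because each group has 1 library, and no replicate could be left out.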
